A study of Mus musculus with 8 samples.

Results

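Distal chromosome 1 of the mouse carries the SLAM family of lymphocyte surface receptors and the Ifi200 family of interferon-inducible DNA sensors. Most measured probes of a stretch of it were brighter in IgE-transfected cells of a B lymphoma line than in untransfected or IgM-transfected cells. The stretch described here spans chr1:159498416-180243520 (mm9), 20.7 Mb in all. Its members were all array probes placed there that were not controls, leaving out 8 genes (Fcgr2b, Fcgr3, Fcgr4, Fcer1g, Fcer1a, Fcrla, Hsd17b7 and Atf6). That rule gave 547 of the array's 55681 probes, under 329 gene names. The interval was chosen from values of IgE lines against control lines in these same arrays, so that contrast is given for its members as a description, with no test.

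The cells were A20, a mouse B lymphoma line of mature B cell type. Per the labels, 4 lines were measured on 2 arrays each, 8 arrays in all: untransfected A20, a stable IgM transfectant, and 2 stable IgE transfectants, clone 18 and clone 41. The untransfected and IgM lines are called the control lines below, and all lines grew under the same conditions with no further treatment named. Each IgE line is a single clone, and the labels do not say whether the IgM line is one. Separate cultures are not named for the 2 arrays of a line either, so each p-value measures only the spread between these arrays, which may be technical. The RNA of whole cultures was measured, so a change in every cell and a change in a share of the cells cannot be told apart.

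SLAM receptors are surface proteins of the immunoglobulin superfamily that mostly bind a copy of themselves on a neighbouring cell and signal through small SH2 adapters and Src family kinases. Proteins of the Ifi200 family carry a pyrin domain, a DNA-binding HIN domain, or both, and Aim2 among them assembles the inflammasome on cytosolic DNA. The stretch also holds TNF family ligands, selectins, flavin monooxygenases, olfactory receptors and many housekeeping genes, so it is defined by position and not by function.

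A level below is the log2 intensity of a probe over the 75th percentile of its own array, so 0 is the brightness of a fairly bright probe, and levels of different probes are not compared. The 75th percentile itself was 474 to 524 intensity units on the IgE arrays and 584 to 664 on the control arrays. A probe counted as measured if at least 1 line had both of its arrays well above background. That held for 267 members (48.8%) under 171 gene names, against 29140 of all probes (52.3%), and for 219 of the 267 no array fell short of that mark. Of the 280 members that were not measured, 194 were never well above background on any array. Where no array of a group reached that mark, a fold is given as a bound, the mean of the brighter group against the dimmest level that still counts as above background in the other. Some members share transcripts: 65 of the measured probes tile 26 intervals of predicted long noncoding RNA (the strands counted apart), and 44 genes had more than 1 measured probe.

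All 11 B cell markers, among them Cd79a, Cd79b and Ms4a1, were well above background on all 8 arrays. Summed over the list on a linear scale, they came to 299 to 415 times the 75th percentile on control arrays and 336 to 366 times on IgE arrays. Of markers for other cell types, 4 of 7 for T cells, 6 of 8 for myeloid cells and 2 of 5 for NK cells were measured. The T cell list summed to 3.92 to 5.07 on control arrays and 4.07 to 5.57 on IgE arrays. The myeloid list summed to 45.8 to 63.7 and 49.7 to 71.2, and the NK list to 2.10 to 2.60 and 2.04 to 2.72. These ranges overlap between the groups for each list, but single markers stood apart. Emr1 lay at -1.15 to 2.59 on control arrays and -4.43 to -2.73 on IgE arrays, Cd68 at 0.95 to 1.55 and 2.30 to 3.60, and Klrb1c was above background on all 4 control arrays and on no IgE array. Cd4, Cd3e and Cd28 of the T cell list, all 6 measured myeloid markers and Nkg7 of the NK list were above background on every array, while Cd8a, Cd14, Lyz2, Klra1 and Klrd1 were so on none. The part of such cells in the differences below was not tested.

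Over the stretch as a whole, most members were somewhat brighter in the IgE lines rather than a few being much brighter. The median difference, IgE lines minus control lines, was 0.74 over the 267 measured members (quartiles 0.28 and 1.14), a 1.67-fold level, and 219 of the 267 (82.0%) lay above 0. Over all 29140 measured probes the median was 0.05 and 55% lay above 0. On 146 members (54.7%) all 4 IgE arrays were above all 4 control arrays, against 14.1% of all measured probes. The reverse, all IgE arrays below all control arrays, held for 11 members (4.12%) against 9.92% of all probes. At least a 2-fold difference was reached by 92 members upwards (4.39% of all probes) and 10 downwards (6.73% of all probes). These shares rest on the contrast that chose the interval, so nothing is read from them beyond the description.

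Counting each gene name once, by its brightest probe, 137 of 171 lay above 0 with a median of 0.60. The 65 probes of noncoding intervals had a median of 1.01, and the 202 other members one of 0.62. Of the 267, 6 were saturated on at least 1 array, and 1 member, Uap1, lacked a value on 1 untransfected array because its spot was marked as an outlier.

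**Figure D1:**
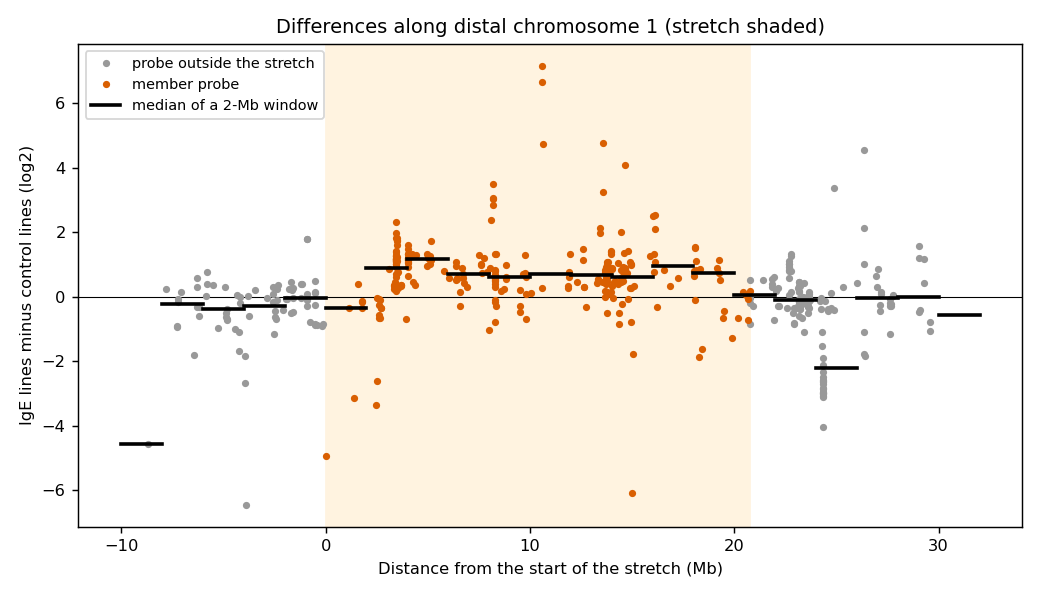
Difference between IgE lines and control lines (log2, vertical axis) for each measured probe against its distance from the start of the stretch in Mb. Orange points are members, grey points are probes within 10 Mb on either side, black bars are medians of 2-Mb windows, and the bars stay between 0.61 and 1.17 from 2 to 20 Mb.

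Array by array, the members formed 2 separate groups. Taking each probe's deviation from its mean over the control arrays, the median over members was -0.15 and -0.05 on the untransfected arrays and 0.10 and 0.07 on the IgM arrays. It was 0.67 and 0.74 for clone 18 and 0.69 and 0.70 for clone 41. The IgE arrays kept within a range of 0.67 to 0.74, above every control array. Because the interval was chosen on this contrast in these arrays, the separation is description only. Over all measured probes the same medians ran from -0.03 to 0.07. The 8 arrays sit on 1 slide in 2 rows, each row holding 1 array of every line, and the median difference was 0.67 within the first row and 0.77 within the second. The columns of the slide follow the lines, so column and line cannot be told apart.

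**Figure D2:**
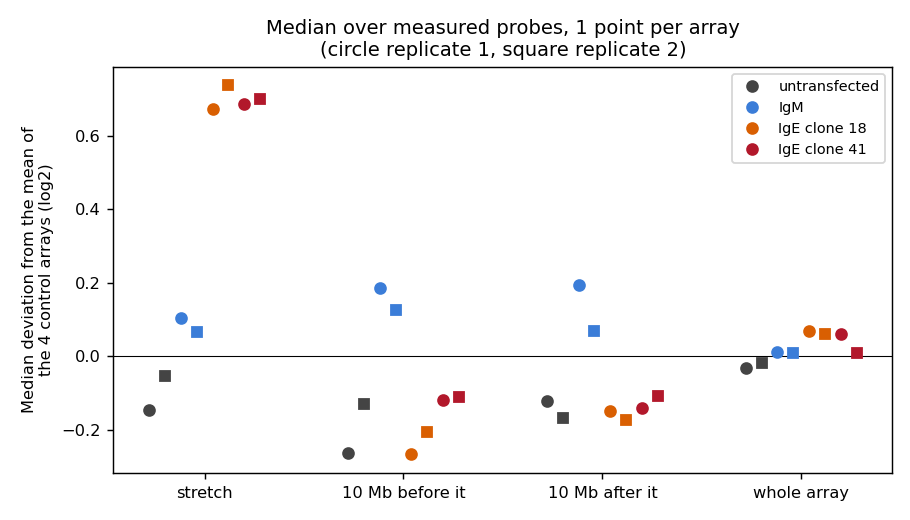
Median deviation of measured probes from their mean over the 4 control arrays (log2), 1 point per array, for the stretch, the 10 Mb on either side of it and the whole array. Circles are replicate 1 and squares replicate 2, and the 4 IgE arrays stand at 0.67 to 0.74 only in the leftmost group.

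The neighbouring chromosome did not share the rise. The 75 measured probes in the 10 Mb before the stretch had a median difference of -0.14, with 28 above 0, and the 131 probes in the 10 Mb after it had -0.17, with 49 above 0. Against untransfected cells the medians of clones 18 and 41 were -0.04 and 0.04 before the stretch and -0.01 and 0.01 after it. Against the IgM line they were -0.44 and -0.25 before it and -0.29 and -0.33 after it. The window from 24 to 26 Mb, counted from the start of the stretch, had a median difference of -2.21 over 30 probes. On the rest of chromosome 1 together, 1491 probes, the median was -0.13. There the IgE clones lay below the IgM line, by a median of -0.31 for clone 18 and -0.30 for clone 41, and at 0.05 and 0.06 against the untransfected line. Inside the stretch both clones lay above both control lines: 0.75 and 0.80 against untransfected cells, and 0.60 and 0.58 against the IgM line, for clone 18 and clone 41.

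The brighter part did not fill the interval. Before 3 Mb from its start, a limit picked after the values were seen, 17 of 18 measured members lay below 0, with a median of -0.34. Between 3 and 19.4 Mb, 215 of 240 lay above 0, with a median of 0.81. From 19.4 Mb on, 3 of 9 lay above 0 and the median was -0.43. At the near edge the genes in order included Rfwd2 (-0.12), an E3 ubiquitin ligase also called Cop1, then Mrps14 (-0.08), a mitochondrial ribosomal protein, Cacybp (-0.55) and Rabgap1l (-0.33), followed by Rc3h1 (0.27), the RNA-binding protein Roquin, Zbtb37 (1.18) and Gas5 (1.99). At the far edge Cep170 (0.90) and Sdccag8 (0.53) were followed, among others, by Zfp238 (-1.28), Adss (-0.67) and Pppde1 (-0.72). Under median centring Rfwd2 and Mrps14 turned to 0.06 and 0.11. The sign of Rabgap1l depended on the probe and on the control line. Its other probes gave -0.64 and, past 3 Mb, 0.86. On the probe at -0.33, clones 18 and 41 lay above untransfected cells (0.42 and 0.29) and below the IgM line (-0.96 and -1.09).

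Just inside the borders of the rule, the first 4 measured probes were Sec16b, Pappa2, 1600012P17Rik and an unnamed transcript (0.41). No IgE array was above background on the first 3, so Sec16b is given as at least 14.2-fold lower in the IgE lines and 1600012P17Rik as at least 2.28-fold lower, and Pappa2 has no fold. Just outside, 2810025M15Rik (-0.83 and -0.90), Rasal2 (-0.87) and a noncoding interval (-0.86) came last before the start. The last 4 inside the end lay between -0.72 and 0.18, and the first 4 beyond it between -0.83 and 0.52.

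Among the SLAM receptors, 7 of the 9 on the array were measured, 5 of them above 0, with a median of 0.40. Of the 171 measured gene names of the stretch, 80.1% lay above 0. Slamf1 and Slamf8 and the adapters Sh2d1b1 and Sh2d1b2 were not measured. Ly9, a self-binding receptor that restrains lymphocyte responses, read 0.89 and 1.55 in the untransfected line, 1.91 and 1.34 in the IgM line, 2.26 and 2.43 in clone 18 and 2.35 and 2.28 in clone 41. It was the only receptor with every IgE array above every control array, and its second probe gave 0.85 beside 0.91. Slamf6, a self-binding receptor of T, B and NK cells, went the other way: 2.79 and 2.68 in the untransfected line, 3.24 and 3.44 in the IgM line, 1.84 and 2.31 in clone 18 and 2.03 and 2.58 in clone 41. All 4 IgE arrays were below all control arrays on both of its probes (-0.85 and -0.51).

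The others overlapped between groups. Cd48, the GPI-anchored ligand of Cd244, differed by 0.48, and Cd244 itself by 0.34. Cd84 gave 0.40 on one probe and 1.06 on another. Slamf7 lay at -0.02, and at 0.17 under median centring. Slamf9 read -0.34 and 1.67 in the untransfected line, -2.78 and -4.16 in the IgM line, -1.39 and -1.22 in clone 18 and 0.88 and 0.40 in clone 41. The range of its untransfected arrays held both clone 41 arrays, clone 18 lay below it and the IgM arrays lay lowest, and its mean difference was 1.07.

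**Figure D3:**
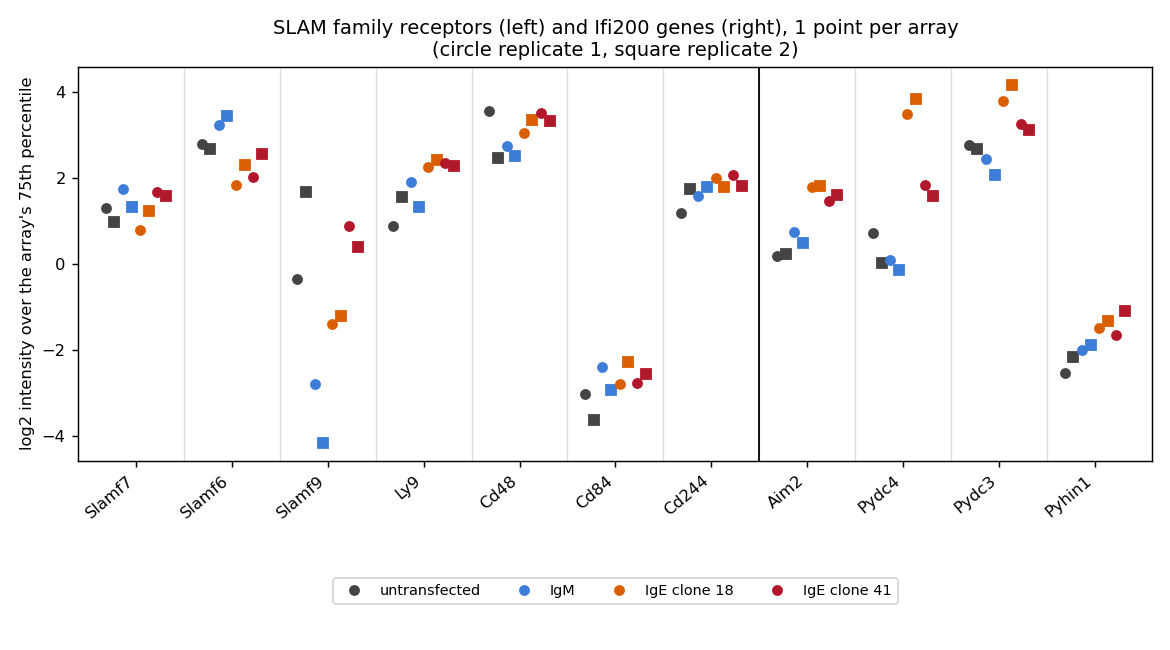
Level of the measured SLAM receptors and Ifi200 genes (log2 intensity over the array's 75th percentile), 1 point per array, coloured by line. All 4 Ifi200 genes have their IgE arrays above their control arrays, while of the 7 SLAM receptors Ly9 does so and Slamf6 does the reverse. Over the stretch, 52.0% of the 171 measured gene names have their IgE arrays above their control arrays.

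Of 11 Ifi200 genes with a probe under the names searched, 4 were measured, with a median difference of 1.18. All 4 had every IgE array above every control array. Of the 171 measured gene names of the stretch 52.0% did so, and of all measured probes 14.1%. Ifi202b, Ifi203, Ifi204, Mnda, Mndal, AI607873 and BC094916 were not measured. Pydc4 read 0.71 and 0.03 in the untransfected line, 0.09 and -0.13 in the IgM line, 3.50 and 3.84 in clone 18 and 1.85 and 1.59 in clone 41, a 5.74-fold mean difference that was larger in clone 18 than in clone 41. Aim2, the inflammasome sensor, read 0.18 and 0.24 in the untransfected line, 0.75 and 0.49 in the IgM line, 1.79 and 1.82 in clone 18 and 1.47 and 1.61 in clone 41, a 2.39-fold difference. Pydc3, now named Ifi208, gave 1.09, 2.09 and 2.53 on its 3 measured probes. Pyhin1, now named Ifi209, gave 0.76 and 1.32, and on the second of these probes the groups overlapped. Genes of this family are close copies of one another, so a probe may also bind a relative's RNA. The measured Pydc4 probe is annotated to an unclassified lung cDNA, and the probe for the RefSeq transcript of Pydc4 was not measured.

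Promoters of 3 of these genes are in the RefSeq table (build GRCm38.p6, 250 bases before to 50 after the start) and are shown because the family is known for interferon-inducible promoters. Capitals mark matches on either strand to GAAANNGAAA, the core letters of an interferon-stimulated response element:
Aim2, chr1:173420354-173420653, plus strand: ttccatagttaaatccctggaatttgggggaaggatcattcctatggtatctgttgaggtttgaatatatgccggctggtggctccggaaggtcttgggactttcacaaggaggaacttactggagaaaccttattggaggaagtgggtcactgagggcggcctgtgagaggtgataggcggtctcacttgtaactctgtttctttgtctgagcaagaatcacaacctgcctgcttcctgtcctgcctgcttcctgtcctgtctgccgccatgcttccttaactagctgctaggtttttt
Ifi209 (Pyhin1), chr1:173630609-173630908, plus strand: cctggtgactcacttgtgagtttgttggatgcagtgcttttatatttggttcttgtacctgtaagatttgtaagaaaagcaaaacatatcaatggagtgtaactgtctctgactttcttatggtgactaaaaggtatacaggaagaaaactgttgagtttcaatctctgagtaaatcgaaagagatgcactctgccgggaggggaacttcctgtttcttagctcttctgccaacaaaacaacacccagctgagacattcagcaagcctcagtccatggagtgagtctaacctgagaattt
Ifi208 (Pydc3), chr1:173673415-173673714, plus strand: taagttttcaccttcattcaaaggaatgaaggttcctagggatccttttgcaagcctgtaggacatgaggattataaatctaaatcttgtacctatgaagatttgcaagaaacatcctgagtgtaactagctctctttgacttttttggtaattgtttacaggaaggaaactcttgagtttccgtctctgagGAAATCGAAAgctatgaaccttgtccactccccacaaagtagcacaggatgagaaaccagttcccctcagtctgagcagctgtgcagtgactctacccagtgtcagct
Ifi208 held a match and the other 2 did not. Of the 32851 RefSeq promoters, 3.44% held one, as did 3.97% of the 126 promoters of 99 measured member genes and 10.9% of the 92 promoters of members that were not measured. A second motif, TTCNNNGAA, the letters of a STAT site, was in none of these 3 promoters and in 8.30% of all promoters. Promoters of the measured members held a median of 15 CpG dinucleotides in 300 bases, those of members not measured 4, and those of all genes 7.

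Wide differences outside these families were at genes of unrelated function. 1700009P17Rik, now Cfap126, a protein of cilia, read -4.24 and -3.60 in the untransfected line, -3.67 and -3.92 in the IgM line, 1.04 and 1.46 in clone 18 and 0.57 and 0.57 in clone 41, 27.2-fold. The other measured probe of this gene gave a smaller difference, 3.24 beside 4.77. Creg1, a secreted glycoprotein of the endolysosomal pathway, read 2.34 and 3.14 in the untransfected line, 2.40 and 2.42 in the IgM line, 5.83 and 5.96 in clone 18 and 5.39 and 5.40 in clone 41, 8.39-fold. Its other probes gave 3.04 and 2.85. The Creg1 promoter (RefSeq, GRCm38.p6), with CpG dinucleotides in capitals, is shown because the 3 probes of the gene gave like differences:
Creg1, chr1:165763508-165763807, plus strand: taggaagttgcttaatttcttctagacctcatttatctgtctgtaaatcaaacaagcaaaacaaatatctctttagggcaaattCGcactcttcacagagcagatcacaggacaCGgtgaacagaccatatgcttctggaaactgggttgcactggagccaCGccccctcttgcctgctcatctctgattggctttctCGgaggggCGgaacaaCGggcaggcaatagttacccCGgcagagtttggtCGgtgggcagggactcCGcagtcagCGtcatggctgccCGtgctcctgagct
It held 11 CpG dinucleotides.

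Rcsd1, an actin capping protein regulator, read 1.73 and 1.41 in the untransfected line, 0.67 and 0.31 in the IgM line, 3.53 and 3.46 in clone 18 and 3.29 and 3.34 in clone 41, 5.19-fold. Gas5, a noncoding RNA that hosts small nucleolar RNAs and accumulates in growth arrest, read 1.70 and 0.51 in the untransfected line, 1.27 and 2.09 in the IgM line, 3.48 and 3.70 in clone 18 and 2.93 and 3.43 in clone 41, 3.98-fold, with 1.82 and 1.72 on its other probes. Its groups did not overlap, with an SD of 0.68 over the 4 control arrays on the first of these probes.

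The lists by role that follow are description only, beside 80.1% of the 171 measured gene names of the stretch above 0. The list of secretory pathway and trafficking genes, Dcaf6, Dcaf8 and Nme7 among them, had 12 measured members. Of these, 11 lay above 0, with a median of 0.86. They included Vamp4 (1.26), a SNARE of the trans-Golgi network, Pigm (1.41) and Pigc (1.30), enzymes of GPI anchor synthesis, and Copa (0.49), a coat protein of COPI vesicles. Sec16b, which organises exit sites of the endoplasmic reticulum, was the exception and read -1.35 and -2.50 in the untransfected line, 0.00 and 0.38 in the IgM line, -6.89 and -5.79 in clone 18 and -5.61 and -4.93 in clone 41. Every control array and no IgE array was well above background, which makes it at least 14.2-fold lower in the IgE lines.

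Of 18 measured genes of metabolism and mitochondria, 15 lay above 0, with a median of 0.61. Among them were the tricarboxylic acid cycle enzymes Fh1 (0.64) and Sdhc (0.45) and the antioxidant enzyme Prdx6 (0.36). Of 13 transcription and RNA regulators, 11 lay above 0 with a median of 0.55, among them Pou2f1 (0.55), the octamer factor Oct-1 that binds immunoglobulin promoters, and Usf1 (0.90). A second Pou2f1 probe gave -0.29. Of 12 genes of DNA repair, kinases and cytoskeleton, 9 lay above 0 with a median of 0.57, among them the exonuclease Exo1 (0.85) and Arhgap30 (1.07). Of 6 surface or secreted proteins 5 lay above 0 (median 0.60), and Cd247, the zeta chain of the T cell receptor complex, lay at -0.77, with 2 of 4 IgE arrays above background. Sele and Xcl1, the TNF ligands Tnfsf4 and Fasl, all 3 Rgs genes, both pentraxins and 18 of 20 olfactory receptor genes were not measured. The remaining TNF ligand, Tnfsf18, was well above background on 3 arrays and differed by -0.68.

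Few members were dimmer in the IgE lines beyond the overlap of arrays. Vsig8, an immunoglobulin-like surface protein, read -1.03 and 0.10 in the untransfected line, -0.29 and -0.64 in the IgM line, -7.02 and -6.97 in clone 18 and -5.89 and -6.25 in clone 41, at least 18.7-fold lower. Dusp23, a small phosphatase, read -3.82 and -3.57 in the untransfected line, -3.82 and -3.88 in the IgM line, -5.67 and -5.33 in clone 18 and -5.42 and -5.77 in clone 41, at least 1.89-fold lower. Both lie in the middle of the brighter part, within 1 Mb of members above 0.

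**Figure D4:**
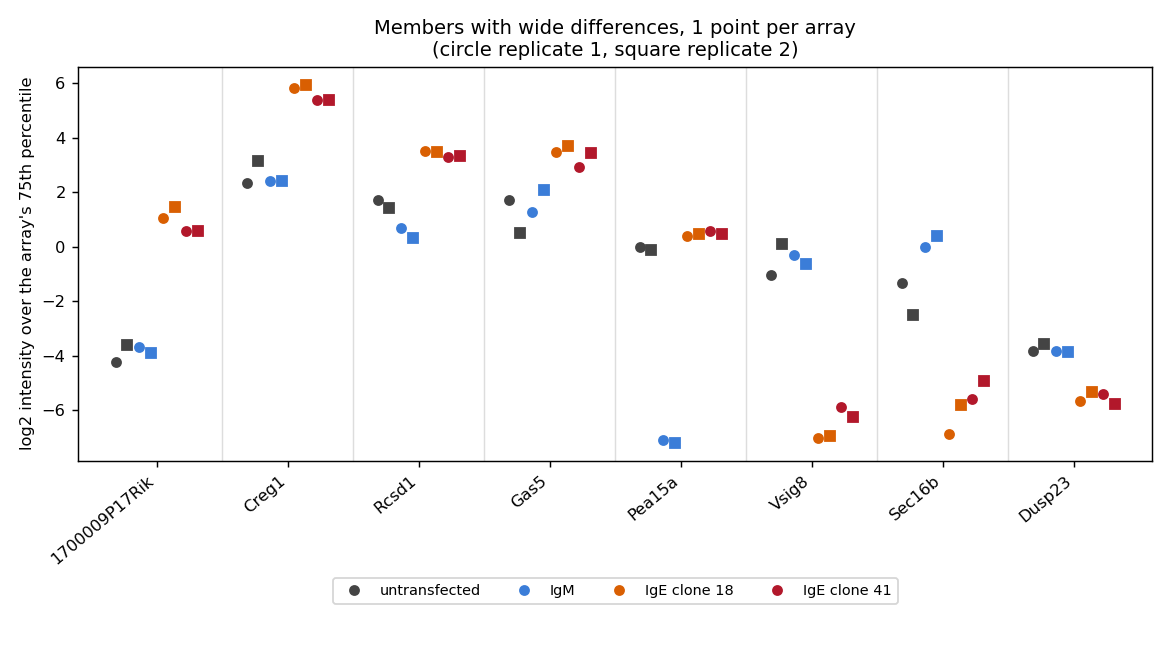
Level of 8 members with wide differences (log2 intensity over the array's 75th percentile), 1 point per array, coloured by line. The IgE arrays of the first 4 genes lie above all control arrays, those of the last 3 lie below, and Pea15a is low on the IgM arrays alone.

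The clones were next set against each other, a comparison that the choice of interval did not use. With limma over all 29140 probes (Benjamini-Hochberg adjusted p under 0.05 and at least 2-fold), none of the 267 members was called between clone 41 and clone 18, against 0.261% of all probes. At an unadjusted p under 0.05, 18 members passed (6.74%, against 5.59% of all probes). The median difference was -0.01 over members and -0.02 over all probes. The members nearest to a call were a noncoding interval at chr1:167515313-167516122 (at least 4.18-fold higher in clone 41, since neither clone 18 array was above background, limma adjusted p = 0.0567), Pydc4 (-1.95, SE 0.27, adjusted p = 0.0659) and the second Pydc3 probe (-1.90, SE 0.28, adjusted p = 0.0764). Both Ifi200 probes were called under a trended and robust prior (limma adjusted p = 0.0240 and 0.0391), with normexp background correction (0.0287 and 0.0319) and with median centring (0.0033 and 0.0046). Under median centring limma drew the spread of each probe far more towards a common value (prior degrees of freedom 65.9, against 2.74 in the main fit). The small p-values of that setting rest largely on this common value. The noncoding interval was called with median centring (limma adjusted p = 1.2e-05) and with 1 probe per gene (0.0494), and Pydc4 also without either untransfected array (limma adjusted p = 0.0285 in each case).

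IgM and untransfected cells gave the other comparison independent of the choice. By the same limma rule 7 of 267 members were called, 3 higher in the IgM line (1.14% of all probes) and 4 lower (0.686% of all probes). Pea15a, a death effector domain protein that binds ERK, read -0.02 and -0.14 in the untransfected line, -7.10 and -7.19 in the IgM line, 0.41 and 0.48 in clone 18 and 0.58 and 0.47 in clone 41. Both untransfected arrays and neither IgM array were well above background, so it was at least 26.6-fold lower in the IgM line (limma adjusted p = 4.3e-05). Against untransfected cells clones 18 and 41 differed by 0.52 and 0.60. Slamf9 (-4.14, SE 0.70, limma adjusted p = 0.0416) and Kmo, an enzyme of tryptophan breakdown (-2.14, SE 0.38, adjusted p = 0.0476), also fell, as did a dim Vangl2 probe (at least 1.67-fold lower, with neither IgM array above background, adjusted p = 0.0020). The other Vangl2 probes differed by -0.20 and, short of a call, by -1.08 (limma adjusted p = 0.122). That last probe was called with median centring (limma adjusted p = 0.0163) and without untransfected replicate 1 (0.0419). Rabgap1l rose (1.38, SE 0.16, limma adjusted p = 0.0103), as did C230094B09Rik (1.40, SE 0.23, adjusted p = 0.0416) and Hmga2-ps1 (1.96, SE 0.22, adjusted p = 0.0081). The other Rabgap1l probes differed by 1.09 and 0.55 and were not called (limma adjusted p = 0.0553 and 0.254). The former was called with normexp (limma adjusted p = 0.0193), a trended and robust prior (0.0251) and a replicate block (0.0459). The count was 2 without IgM replicate 1, 4 without IgM replicate 2, 16 without untransfected replicate 1 and 12 without untransfected replicate 2. It was 4 without either clone 41 array and 5 without either clone 18 array. Pea15a and the dim Vangl2 probe were called in each of these 8 fits. With the replicate number, which follows the slide row, as a block, Slamf9 (limma adjusted p = 0.0733) and C230094B09Rik (0.0520) were not called. Median centring lost Rabgap1l and C230094B09Rik, normexp lost the Vangl2 probe, and the authors' deposited values lost Slamf9, Kmo, C230094B09Rik and the Vangl2 probe.

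Across all members the IgM line lay above untransfected cells by a median of 0.20, against 0.04 over all probes and 0.29 on the rest of chromosome 1. Under median centring these first values became -0.23 and -0.40, so the direction depends on the centring. The distance between members and all probes was 0.16, and 0.04 with no filter, 0.10 with the authors' deposited values, 0.12 with normexp and 0.11 without untransfected replicate 1. That centring moved the median of all probes in the IgE contrast from 0.05 to 0.24.

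**Figure D5:**
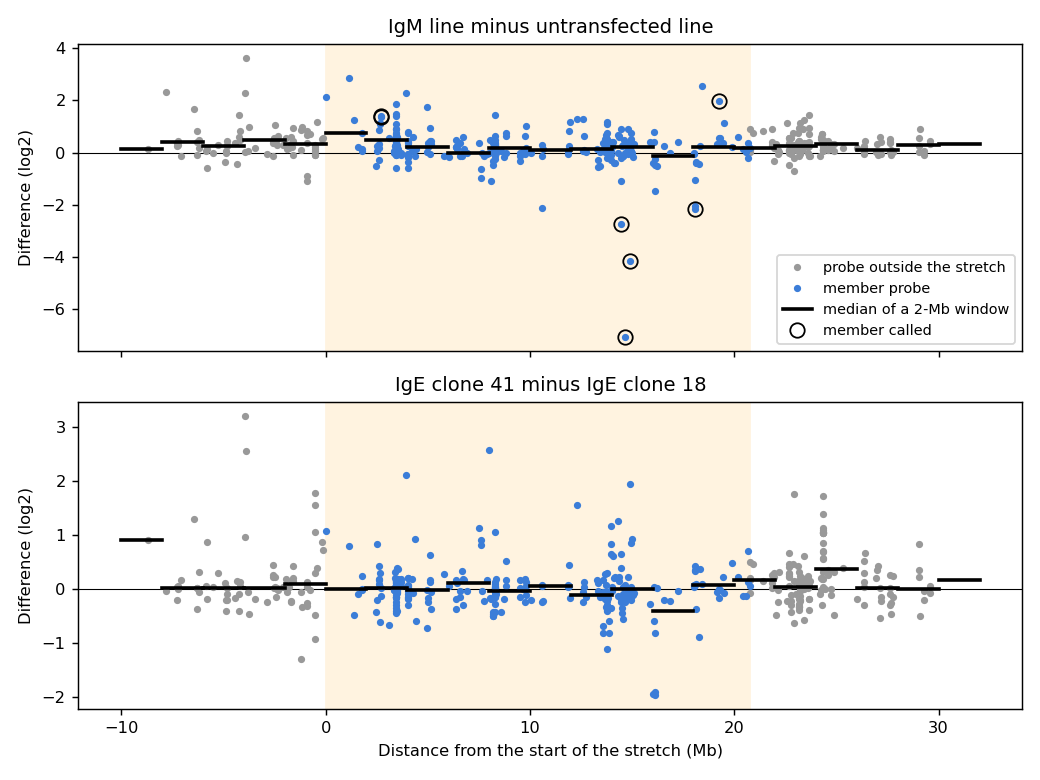
IgM line minus untransfected line (top) and IgE clone 41 minus clone 18 (bottom), in log2, for each measured probe against distance from the start of the stretch in Mb. Circles mark the 7 members called by limma in the top panel, with Pea15a lowest, and no member was called in the bottom panel.

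Genes outside the stretch that work with its receptors and sensors were tested between IgE and control lines, since the choice of interval did not rest on them. Their lists were drawn up with earlier results of these data known, so the calls below are not free of selection. Of 15 measured signalling partners of SLAM receptors, limma called 1 lower and none higher, against 5.39% and 3.6% of all probes. That was Fyn, the Src family kinase that the SLAM adapter recruits, which read 2.16 and 3.24 in the untransfected line, 3.35 and 3.49 in the IgM line, -0.08 and 0.03 in clone 18 and 1.58 and 1.50 in clone 41 and fell by 2.30 (SE 0.24, limma adjusted p = 0.0013). Lyn, Vav1 and Plcg2 differed by 0.28, -0.04 and 0.16 and were not called. The SLAM adapter Sh2d1a was well above background on no array.

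Of 14 measured partners in inflammasome and DNA sensing, 1 was called higher and 2 lower, against 3.6% and 5.39% of all probes. Nlrc4, an inflammasome sensor of bacterial flagellin, read -4.66 and -5.25 in the untransfected line, -5.27 and -5.67 in the IgM line, -0.20 and -0.26 in clone 18 and -0.64 and -0.15 in clone 41 and was at least 22.4-fold higher (limma adjusted p = 2.3e-05), since no control array was well above background. Casp4, the caspase that senses lipopolysaccharide, read 1.92 and 3.80 in the untransfected line, 1.73 and 0.89 in the IgM line, -2.89 and -2.94 in clone 18 and -2.71 and -1.68 in clone 41 and fell by 4.64 (SE 0.46, limma adjusted p = 0.0011). Il18, a cytokine that inflammasomes process, fell by 2.28 (SE 0.21, limma adjusted p = 8.8e-04), with 2 of 4 IgE arrays above background, and by 0.74 with normexp background correction. Pycard, the adapter between Aim2 and caspase-1, differed by -0.91 (limma adjusted p = 0.0335), short of 2-fold, and Casp1 by -0.20.

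Among 5 measured receptors and adapters of the TNF ligands, 1 was called lower and none higher, against 5.39% and 3.6% of all probes. That was Fas, which fell by 1.03 (SE 0.18, limma adjusted p = 0.0113), just past the 2-fold limit. It missed that limit under quantile normalization, median centring and the authors' deposited values, and without untransfected replicate 1 (-0.93), IgM replicate 1 (-0.88) or clone 18 replicate 1 (-0.99).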

How the data were processed

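Total RNA of 4 A20 lines was hybridised in 1 colour to Agilent mouse arrays of design 028005, and read with Feature Extraction 10.7.3.1 with probes placed on mm9, per the file headers. The deposited processed intensity of each spot had its background subtracted by the scanner software, per the file headers, and was not normalized between arrays. The authors also deposited a table of log2 values, used as an alternative; its scale was inferred from the values, and its normalization is not given in the sources used here. Outlier spots were left out, spots of a probe averaged, and log2 intensity taken minus the array's 75th percentile. Probes for which at least 1 line had both arrays well above background were fitted with limma 3.58.1 (R 4.3.3), 1 mean per line on all 8 arrays, with Benjamini-Hochberg adjustment over all 29140 probes, and called at an adjusted p under 0.05 and at least 2-fold. The fit was tested on simulated data first. Precision is limited by the 2 arrays per line. The members and gene lists were chosen with earlier results of these data known. Named genes are the measured members of the gene lists, the 12 highest and 8 lowest by their smallest difference over the 4 pairs of clone and control line, up to 8 bounded genes in each direction, members called in the other comparisons, and the probes at the borders. A gene is given by its brightest probe. A few genes the rule names are not reported here. Alternatives were other normalizations, background corrections, filters, priors and left-out arrays.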

Additional observations from a re-analysis of the deposited data

How the results depend on the processing

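The median difference over members stayed above 0 under every normalization, background correction, filter and left-out array tried. It was 0.92 with median centring, 0.53 with normexp, 0.22 with no filter (547 members), 0.55 with the authors' deposited values and 0.59 with 1 probe per gene of the whole array (170 members), and 0.68 to 0.75 without single arrays. Members called between the clones numbered 6 with median centring, 2 with normexp, 1 with 1 probe per gene and 2 with a trended and robust prior, and 0 to 1 without single arrays. Members called between the IgM line and untransfected cells numbered 17 with median centring and 3 with the deposited values, and 2 to 16 without single arrays. Partner genes called numbered 3 with the strict filter, which leaves out probes dim in a line, and 4 to 6 without single arrays. The cause of the other changes was not tested. Deviations of arrays with the same replicate number correlated between lines at -0.07 to 0.35, not over 0.1 for every pair of lines, so the numbers were not taken as pairing the arrays. With a replicate block the median was 0.74, and 0 members were called between clones, 6 between IgM and untransfected cells, and 5 partner genes. Signal over background limits the 280 members not measured, for which no difference is given.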
